A study of Homo sapiens with 183 samples.

Results

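The response of T3M-4 cells carrying an empty vector to CB-6644 was measured by poly-A RNA-seq. T3M-4 is an established human pancreatic cancer cell line with a basal-like expression program, and CB-6644 is a small-molecule inhibitor of the RUVBL1/2 ATPase. The question was which transcripts changed when this enzyme was inhibited in cells without a resistance allele. Of the 183 libraries of the series, 6 were compared. The treated group held 3 libraries of cells that stably carried an empty lentiviral vector (Lv-Empty) and received CB-6644 for 24 h. The control group held 3 DMSO libraries of 24 h, and each of them had another stable lentiviral genotype: Lv-Empty, a RUVBL1 A62T cDNA and a RUVBL2 dF109 cDNA. A62T and dF109 are changes in RUVBL1 and RUVBL2 that protect cells from the inhibitor, so their DMSO libraries served as controls without inhibition and also carried an extra gene. All cells had been selected with G418 as infected populations, and no source says that the replicates came from separate cultures. The p-values therefore measure only a spread between libraries. In the main test it was pooled over all 12 T3M-4 libraries, the variant cells under CB-6644 included. Genes were kept where the mean over the 6 libraries was at least 1 TPM, a transcript abundance scaled to the same total in every library, and RUVBL1 and RUVBL2 were left out, since 2 of the control libraries overexpressed one of them. This left 13183 of 19875 gene names.

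RUVBL1 and RUVBL2 are AAA+ ATPases that assemble into a ring. The ring is a shared part of the chromatin remodelers INO80, SRCAP and TIP60, and of the R2TP co-chaperone, which helps to assemble box C/D snoRNPs for ribosome synthesis, RNA polymerase II and the large PIKK kinases such as ATM and DNA-PK. Basal-like pancreatic cancer cells express keratins and transcription factors of stratified epithelia, such as KRT5, KRT17 and TP63, and the zinc finger factor KLF5 is one of the regulators of epithelial identity in this tumor type.

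The overexpressed genes matched the labels. RUVBL1 stood at 1785 TPM in the A62T DMSO library and at 142 and 148 TPM in the other DMSO libraries, and RUVBL2 stood at 1055 TPM in the dF109 DMSO library and at 130 and 137 TPM in the others. Under CB-6644 the empty-vector libraries held 110 to 114 TPM of RUVBL1 and 119 to 148 TPM of RUVBL2. Between 12650 and 13579 genes reached 1 TPM in each of the 6 libraries, and the sequencing depth behind the TPM values is unknown. The epithelial markers KRT8, KRT18, KRT19, EPCAM, CDH1, CLDN4, CLDN7 and ESRP1 summed to between 3421 and 6095 TPM per library, with the 3 treated libraries lowest. The fibroblast markers summed to between 13.7 and 24.9 TPM, the leukocyte markers to between 10.8 and 25.2 TPM and the endothelial markers to between 1.53 and 4.28 TPM, and the treated and control ranges overlapped in each of these 3 lists.

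The 3 control libraries were not alike, and this bears on many of the falls described below. Of the 13183 genes, 782 were at least 2-fold higher in the A62T DMSO library than in the empty-vector DMSO library and 84 were at least 2-fold lower, on the log2(TPM + 1) scale. The dF109 DMSO library lay nearer to the empty-vector one, with 229 genes at least 2-fold higher and 77 lower. Taken against the A62T library alone, the mean of the treated libraries was at least 2-fold higher for 267 genes and lower for 761, whereas against the empty-vector DMSO library these numbers were 423 and 138. Genotype, cDNA and library cannot be told apart here, since each genotype had 1 DMSO library. Among the treated libraries, replicate 3 stood off from replicate 1, with 743 genes at least 2-fold lower in replicate 3 and 23 higher. Each result is therefore given against the 3 DMSO libraries. Where the call was lost or the value moved by more than 1.5 times against the empty-vector DMSO library alone, a single library that is assumed to vary like the other groups, the value against that library stands beside it. A pair of values in brackets is in this order.

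CB-6644 raised 2561 of the 13183 genes and lowered 2031 at a Benjamini-Hochberg adjusted p under 0.05 in limma, which is 19.4% and 15.4% of the genes tested and 34.8% in all. The test was run on log2(TPM + 1), with all 12 libraries of the T3M-4 experiment sharing the estimate of the spread. On this scale the change of genes at a few TPM is understated. Among the called genes, 270 rose and 264 fell by at least 1 on the log2 scale. The median difference over all genes was 0.04. All 3 treated libraries lay above the 3 controls for 19.7% of genes and below them for 15.5%. When the fit held only the 6 compared libraries, 884 genes were called higher and 666 lower, or 6.71% and 5.05% (11.8% in all). Without treated replicate 2 the number of rises was 1694. Against the empty-vector DMSO library alone 3571 genes were called higher and 1279 lower, 27.1% and 9.70% (36.8% in all), so the share of rises among the calls went from 55.8% to 73.6%. Scaling the libraries by the median of ratios gave 2197 rises and 3341 falls (16.7% and 25.3% of genes, 42.0% in all), a share of rises of 39.7%. A total of 2044 genes, 15.5%, were called higher with both controls and 1061, 8.05%, were called lower with both. Of the rises against the 3 DMSO libraries 79.8% were called in the same direction against the empty-vector library alone, and of the falls 52.2% were.

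**Figure D1:**
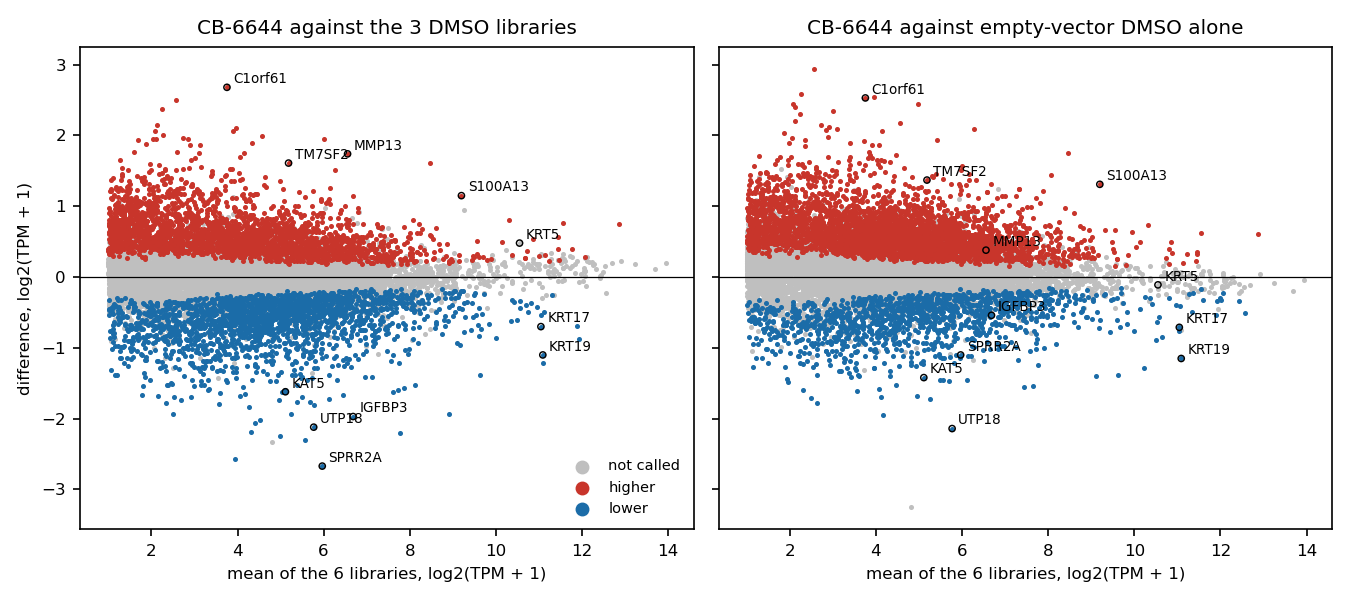
Difference between the 3 empty-vector libraries under CB-6644 and DMSO, on the log2(TPM + 1) scale, against the mean level of each of the 13183 genes (1 point per gene), with the 3 DMSO libraries as control (left) or the empty-vector DMSO library alone (right). Red and blue points passed an adjusted p of 0.05 in limma; UTP18, KAT5, KRT17 and KRT19 lie at about the same height in both panels, whereas SPRR2A, IGFBP3 and MMP13 lie nearer to 0 on the right.

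The largest rise was that of C1orf61, whose transcript is the host of a brain-enriched microRNA. It stood at 24.9, 23.8 and 18.3 TPM in the treated libraries and at 2.63, 2.25 and 3.01 TPM in the A62T, dF109 and empty-vector DMSO libraries. The treated libraries all lay above the controls, and the difference was 2.68 ± 0.13 (SE, log2 scale, limma adjusted p = 1.2e-06), and 2.53 against the empty-vector library alone. RFPL4A, a germline RING finger gene at chr19:55757294-55763421, stood at 9.871, 9.002 and 8.245 TPM against 0.815, 1.33 and 0.309 TPM, a difference of 2.50 ± 0.17 (limma adjusted p = 4.36e-06). RFPL4A, FRG2 and the histone genes have near-identical copies between which reads can be split, so their levels are uncertain. The other rises among the 10 largest were those of the hair keratin KRT36 (2.38), the germ cell bridge protein TEX14 (2.15), the neuronal pentraxin receptor NPTXR (2.11), the sperm protein CABYR (2.06), the pentraxin NPTX2 (2.06), FRG2 (2.01), the huntingtin-associated protein HAP1 (1.99) and the histone gene HIST1H3A (1.96). Several of these genes belong to neurons or germ cells in the healthy body. KRT36 was below 0.6 TPM in each DMSO library and at 4.84 to 9.48 TPM under the inhibitor. HAP1 stood at 47.4, 38.4 and 24.7 TPM against 10.3, 7.54 and 7.11 TPM. All 10 were called with each control choice and in the fit of 6 libraries. These settings reuse libraries by which the 10 were picked, as they do for the falls below, and are no independent check.

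The largest falls depended more on the control. SPRR2A, a small proline-rich protein of the cornified envelope, stood at 16.5, 14.9 and 7.99 TPM under CB-6644. In DMSO it stood at 181 TPM in the A62T library, at 121 TPM in the dF109 library and at 28.1 TPM in the empty-vector library. The treated libraries were the lowest, but the empty-vector control lay closer to them than to the other controls: the difference was -2.67 ± 0.51 (limma adjusted p = 0.00225) against the 3 libraries and -1.10 (adjusted p = 0.0199) against the empty-vector library alone. The same order held for ANKRD1, a cardiac ankyrin repeat protein and YAP target (-2.57 and -1.28), the retinol dehydrogenase DHRS9 (-2.30 and -1.45), LRRC38 (-2.25 and -0.77), the coagulation initiator F3 (-2.20 and -1.24), the transcription factor ZBED2 (-2.19 and -1.32), the ETS factor FLI1 (-2.06 and -0.78), the transglutaminase TGM2 (-2.02 and -0.66) and IGFBP3 (-1.97 and -0.54). For each of these 9 genes the value against the empty-vector library was smaller by more than 1.5 times. All 10 of the largest falls were called with both controls, and 8 in the fit of 6 libraries, where TGM2 (adjusted p = 0.0518) and IGFBP3 (adjusted p = 0.0541) were not.

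UTP18 stood apart from the other large falls. It encodes a protein of the small-subunit processome, which processes the precursor of 18S ribosomal RNA, and lies at chr17:51260546-51297933 (GRCh38). It stood at 18.4, 20.1 and 19.5 TPM under CB-6644 and at 82.8, 91.9 and 88.6 TPM in the A62T, dF109 and empty-vector DMSO libraries. The treated libraries lay close together, far below all 3 controls. The difference was -2.12 ± 0.07 (limma adjusted p = 2.6e-08) and -2.14 against the empty-vector library alone. Further falls of more than 1.4 with either control, picked out after their values were seen, were those of the growth factor NRG1 (-1.93 and -1.72), the hexokinase HK2 (-1.79 and -1.61), the homeobox factor PITX1 (-1.76 and -1.47), PTHLH, which encodes parathyroid hormone-related protein (-1.72 and -1.46), the AP-1 repressor JDP2 (-1.68 and -1.58) and the mitochondrial seryl-tRNA synthetase SARS2 (-1.55 and -1.70). NRG1, a ligand of ERBB3, stood at 16.3, 15.03 and 12.98 TPM against 64.4, 62.2 and 50.8 TPM.

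**Figure D2:**
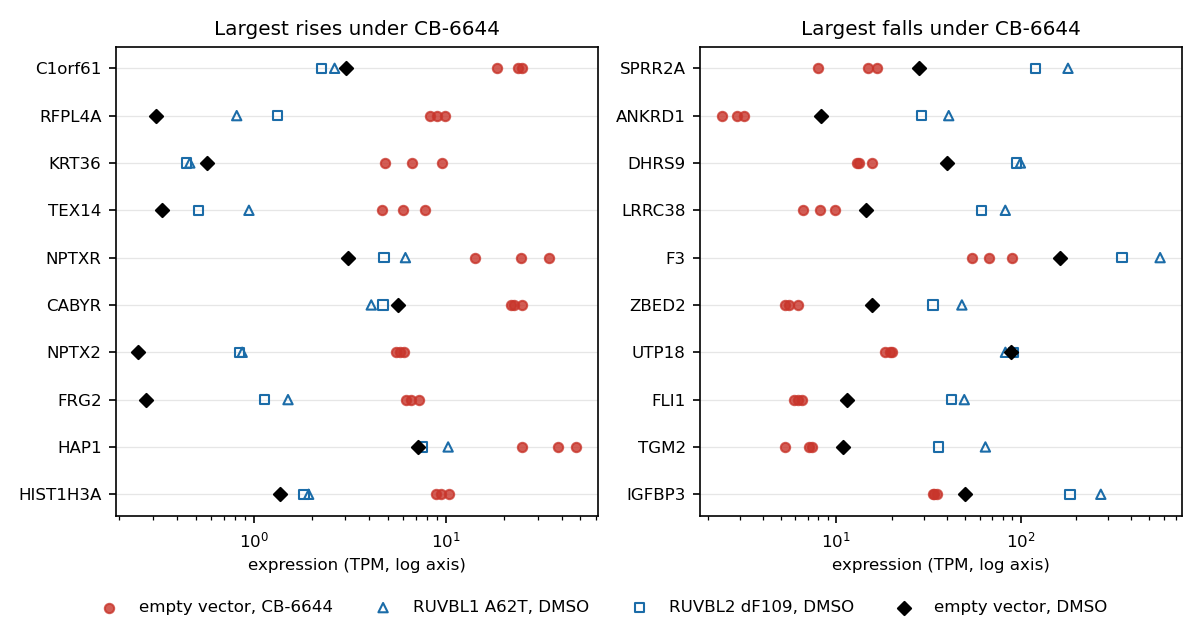
Level in TPM (log axis) of the 10 genes with the largest rise (left) and the 10 with the largest fall (right) in each of the 6 libraries, 1 symbol per library. For the rises all 3 DMSO libraries lie below the treated libraries, with the empty-vector one well below the other controls for RFPL4A, NPTX2 and FRG2. For the falls the empty-vector DMSO library (black diamond) lies between the treated libraries and the other controls, except for UTP18.

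The promoters of 3 of these genes are shown because they belong to the fall among the 10 largest that moved least with the control (UTP18), to a fall that is also in the study's list of KLF5 direct targets (F3) and to a top rise (RFPL4A). Each is the RefSeq window from 250 bases before to 50 bases after the start (GRCh38.p14, 5′ to 3′ on the gene's strand), at chr17:51260296-51260595 (plus strand), chr1:94541710-94542009 (minus) and chr19:55758847-55759146 (plus). The RFPL4A window lies inside the span given above, so it surrounds the start that the promoter table uses and not the first base of that span. Capitals mark the 8 letters CCACACCC or their reverse complement GGGTGTGG, a CACCC-type word of the kind that KLF family factors recognise.
UTP18: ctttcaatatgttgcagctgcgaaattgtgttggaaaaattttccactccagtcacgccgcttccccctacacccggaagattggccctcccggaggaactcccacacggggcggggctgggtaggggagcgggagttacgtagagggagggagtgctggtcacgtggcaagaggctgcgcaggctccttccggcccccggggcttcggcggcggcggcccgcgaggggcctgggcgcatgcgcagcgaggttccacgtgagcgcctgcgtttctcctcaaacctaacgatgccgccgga
F3: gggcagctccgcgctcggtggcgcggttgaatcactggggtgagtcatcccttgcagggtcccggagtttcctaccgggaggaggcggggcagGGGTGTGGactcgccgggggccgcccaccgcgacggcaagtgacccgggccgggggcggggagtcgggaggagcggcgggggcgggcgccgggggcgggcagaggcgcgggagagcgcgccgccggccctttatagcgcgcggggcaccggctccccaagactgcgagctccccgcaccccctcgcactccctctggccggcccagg
RFPL4A: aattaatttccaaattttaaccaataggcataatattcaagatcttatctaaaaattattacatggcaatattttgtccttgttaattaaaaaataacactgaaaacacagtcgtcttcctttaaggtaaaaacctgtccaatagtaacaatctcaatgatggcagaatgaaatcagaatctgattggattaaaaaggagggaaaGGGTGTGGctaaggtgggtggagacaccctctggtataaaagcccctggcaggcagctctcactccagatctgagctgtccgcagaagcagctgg
The F3 and RFPL4A windows held 1 match each and the UTP18 window none. Only this exact word was counted, so a window without it can hold other sites for KLF factors. The word was present in 3.22% of the 27305 promoters of the table and in 2.99% of the 10164 tested genes that had one. It was present in 2.85% of the 1546 promoters of genes called higher with both controls and in 3.85% of the 832 of genes called lower with both. Of the 54 promoters of the study's KLF5 direct targets 2 held it, or 3.7%.

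The complexes that hold RUVBL1/2 were looked at next. Counts of list members, here and below, are to be read beside the shares of all genes. Against the 3 DMSO libraries 19.4% of all genes rose and 15.4% fell, and against the empty-vector library alone 27.1% and 9.70% did. Of 30 subunits of INO80, SRCAP and TIP60, 9 fell and 4 rose, with a median difference of -0.17 beside 0.04 over all genes, and 6 and 3 of these calls were shared by both controls. KAT5, the acetyltransferase of the TIP60 complex, stood at 16, 15.89 and 15.77 TPM under the inhibitor and at 59.9, 49.6 and 44.3 TPM in the controls. Its groups were far apart, with a difference of -1.62 ± 0.10 (limma adjusted p = 2.91e-06) and -1.42 against the empty-vector library alone. ING3, a histone-reading subunit of the same complex, fell by 1.18, the INO80 subunit MCRS1 by 0.79 and the histone reader YEATS4 by 0.63 on the log2 scale, whereas BRD8 rose by 0.47. Against the empty-vector library alone the median of the list was 0.04, with 7 falls and 6 rises, and scaling gave 12 falls and 1 rise. Among 24 genes of the R2TP complex and snoRNP assembly 8 fell and 2 rose (median -0.11), whereas 5 fell and 6 rose against the empty-vector library. The pseudouridine synthase DKC1 fell by 0.79 and the prefoldin PFDN2 by 0.74, the DKC1 partner GAR1 fell as well (-0.71 and -0.46), and the snoRNP assembly factor ZNHIT3 rose by 0.50. Of 8 subunits of the cytosolic chaperonin CCT, which folds actin and tubulin, 5 fell and none rose in limma, with a median of -0.24, and 2 fell against the empty-vector library. CCT2 fell by 0.33 and CCT5 by 0.39, the latter at -0.29 (adjusted p = 0.0582) against the empty-vector library. Lists of R2TP clients and of genes that act with them were also read. Of 16 RNA polymerase II genes, a list of subunits that also holds the assembly factor GPN3, 4 rose, GPN3 among them, and none fell. Of 11 genes of PIKK kinases, TTT proteins and partners such as the ATR partner ATRIP, 2 rose and none fell. The rises were those of PRKDC by 0.41 and ATRIP by 0.58. Over all genes 19.4% rose and 15.4% fell. The median of the polymerase list was 0.07, but -0.03 with the libraries scaled by the median of ratios.

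Most called genes of ribosome synthesis fell. Of 34 measured ribosome biogenesis genes 21 fell, or 12 with both controls, and 1 rose, with a median of -0.40. Beside UTP18, the nucleolar factors NOP16 (54.7 to 57.1 TPM against 98.0 to 110 TPM, a difference of -0.86), RRP9 (-0.75) and GRWD1 (-0.73) fell, while the polymerase I factor RRN3 rose by 0.49. Against the empty-vector library alone GRWD1 was at -0.33 (adjusted p = 0.14) and the median of the list was -0.18. Of 75 genes of the cytosolic ribosomal proteins 5 rose, RPL12 (0.40 and 0.04, not called) and RPS19 (0.39 and 0.22) among them, and none fell, at a median of 0.16. This direction turned with the control: against the empty-vector library alone 2 rose and 10 fell and the median was -0.09, and with scaling none was called in either direction. MYC, a driver of ribosome synthesis, stood at 47.3, 37.3 and 29.4 TPM against 123, 96.7 and 81.4 TPM, and fell by 1.39 ± 0.16 (limma adjusted p = 0.000111), or by 1.11 against the empty-vector library. Of the 10 genes of the MYC family and its partners 2 fell and 1 rose, and with scaling 6 fell and 1 rose.

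Most called histone genes rose. Of 20 measured clustered histone genes 11 rose, all 11 with both controls, and 1 fell, with a median of 0.60, and in the fit of 6 libraries 4 rose and none fell. HIST1H3H stood at 61.4, 47.83 and 48.04 TPM against 25.6, 27.2 and 28.4 TPM and rose by 0.92, HIST1H1B by 1.09 and HIST2H2BF by 1.00, while the linker histone gene HIST1H1C fell (-0.42 and -0.26). The libraries were made from poly-A RNA, so replication-dependent histone mRNA, which mostly ends without a tail, is seen in part only. Of 44 DNA replication genes 17 rose and 5 fell (median 0.14), and 16 and 4 of them with both controls. With scaling 11 rose and 10 fell, and in the fit of 6 libraries 5 and 3 did. The clamp loader subunit RFC5 rose by 0.82, from 63.3 to 67.7 TPM in the controls to 106 to 127 TPM under the inhibitor, and the thymidine kinase TK1 rose by 0.56. Ribonucleotide reductase RRM2 went the other way, at 48.9, 43.6 and 44.0 TPM against 119, 107 and 83.2 TPM, a fall of 1.15, and the helicase subunits MCM3 and MCM7 fell by 0.60 and 0.44. Of 24 genes of homologous recombination and the Fanconi pathway 10 rose and 2 fell, or 6 and 3 with scaling: the nuclease EXO1 rose by 0.58, FANCI by 0.51 and FANCG by 0.45, and FANCE fell by 0.61. Of 40 mitotic genes 8 were higher and 7 lower, near the 19.4% and 15.4% of all genes. These counts were 4 and 9 with the empty-vector library alone, 1 and 9 with scaling and 1 and 3 in the fit of 6 libraries. CDC20 fell by 0.81 and UBE2C and CCNB1 by 0.36 each, and CDC25C (0.87 and 0.43) and BIRC5 (0.38, not called with scaling) rose. The kinase PLK1 stood at 51.8, 35.6 and 22.4 TPM against 80.7, 71.2 and 66.1 TPM, so its fall of 1.04 came from treated libraries that spread widely, and it was not called against the empty-vector library (-0.91, adjusted p = 0.0568).

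Several inhibitors of G1 progression rose against the 3 DMSO libraries. Of 22 cyclins, CDKs and inhibitors 7 rose and 2 fell, and in the fit of 6 libraries 1 rose and none fell. CDKN1A, which encodes p21, stood at 156, 150 and 143 TPM against 113, 91.4 and 67.1 TPM and rose by 0.75 ± 0.14 (limma adjusted p = 0.00195), or by 1.15 against the empty-vector library, the lowest control. CDKN2D (0.73 and 1.2), CDKN2B (0.66 and 1.31) and CDKN2C (0.58) rose, and CDK6 fell (-0.62 and -0.36, the latter not called). In the variant cells under CB-6644, CDKN1A stood at 139 to 153 TPM and CDKN2B at 36.5 to 45.4 TPM. Of 23 genes that p53 can induce 8 rose and 4 fell (median 0.25). The adrenodoxin reductase gene FDXR (1.04 and 0.54) and BTG2 (0.86 and 0.38) rose, and CCNG1 and PHLDA3 fell by 0.70 and 0.72. In the BCL2 family of cell death regulators 2 of 15 rose, BMF by 1.02 and BAD by 0.28 (not called with scaling), and 5 fell, among them BIK (-0.54 and -0.22), BBC3 (-0.40 and -0.19) and MCL1 (-0.38 and -0.03). None of the falls of this family was called against the empty-vector library alone, where 6 members rose.

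The keratins of stratified epithelia are described because they mark the basal-like state. KRT5, the basal keratin, stood at 1784, 1707 and 1628 TPM under CB-6644, at 855 TPM in the A62T DMSO library, at 1165 TPM in the dF109 library and at 1846 TPM in the empty-vector library. The treated libraries lay within the range of the controls, just under the one of the same genotype: the difference was 0.48 ± 0.20 (limma adjusted p = 0.0836) against the 3 controls and -0.11 (adjusted p = 0.213) against the empty-vector library. KRT4, a mucosal keratin, turned in the same manner, at 189, 180 and 171 TPM against 59.9, 79.1 and 295 TPM, with 0.68 (adjusted p = 0.232) and -0.71 (adjusted p = 0.000568). KRT17 fell with either control: it stood at 1776, 1610 and 1450 TPM against 2494, 2714 and 2630 TPM, and the difference was -0.70 ± 0.08 (limma adjusted p = 7.98e-05) and -0.71. KRT14 stood at 381, 379 and 351 TPM against 515, 691 and 981 TPM and fell (-0.93 and -1.40). Of the 12 keratins tested of 13 listed, 5 fell, KRT6A (-0.37), KRT6B (-0.94) and KRT16 (-1.09) being the others, and none rose, with a median of -0.37. Reads of KRT6A, KRT6B and KRT6C can be split between these near-identical genes. KRT13, the most abundant keratin at 5033 to 7917 TPM, differed by -0.22 (adjusted p = 0.181), KRT15 by -0.36 (adjusted p = 0.131), KRT6C by 0.16 (adjusted p = 0.349), KRT80 by 0.14 (adjusted p = 0.824) and KRT81 by -0.63 (adjusted p = 0.0932, called with scaling at -0.71). Against the empty-vector library KRT4, KRT13 (-0.51) and KRT15 (-0.84) were also called lower and KRT80 higher (1.53). KRT75 was at or below 0.339 TPM in all 6 libraries and was not tested. Among 5 simple epithelial keratins KRT19 fell from 2913 to 3077 TPM in the controls to 1303 to 1494 TPM, a difference of -1.10 ± 0.07 (limma adjusted p = 3.03e-06). KRT18 was called lower (-0.56), but stood at 495 TPM in the empty-vector control and at 483 to 509 TPM under the inhibitor. A lower level in bulk RNA can come from fewer cells that express the gene or from less RNA per cell, and these cannot be told apart.

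**Figure D3:**
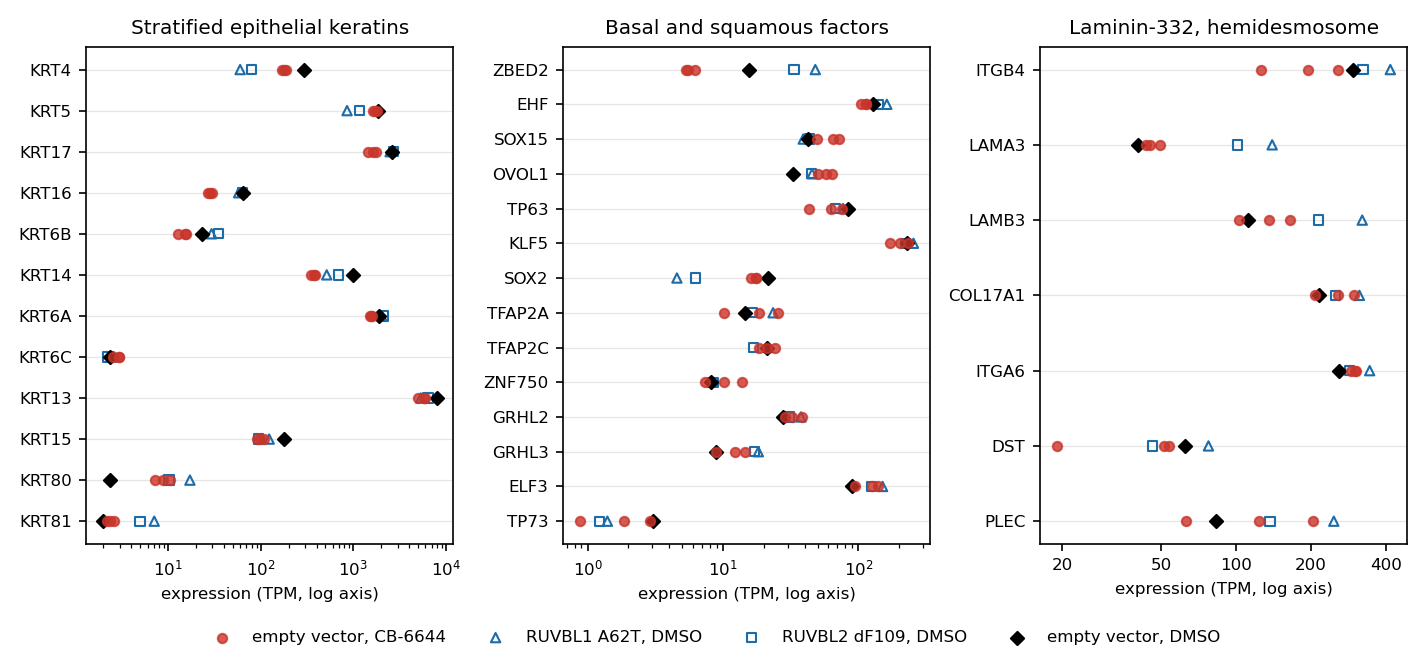
Level in TPM (log axis) of keratins of stratified epithelia (left), basal and squamous transcription factors (middle) and laminin-332 and hemidesmosome genes (right) in each of the 6 libraries, 1 symbol per library. For KRT4, KRT5, SOX2 and LAMA3 the treated libraries lie next to the empty-vector DMSO library and away from the 2 variant DMSO libraries, whereas for KRT14, KRT16, KRT17 and ZBED2 they lie below all 3 controls.

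The listed basal and squamous transcription factors were called about as often as all genes. The list also holds the ETS factors EHF and ELF3, and the study names ELF3 among classical identity genes. Its counts are therefore not those of the basal state alone. KLF5 stood at 231, 202 and 172 TPM against 255, 223 and 229 TPM, a difference of -0.23 (limma adjusted p = 0.083), and TP63 stood at 76.1, 62.8 and 43.1 TPM against 77.0, 67.5 and 83.8 TPM, a difference of -0.35 (adjusted p = 0.11). For both, the lowest treated library was below the controls and the highest was not. With scaling both were called lower, KLF5 at -0.33 (adjusted p = 0.00551) and TP63 at -0.45 (adjusted p = 0.0187). Of 15 factors tested of 16 listed, 3 rose and 2 fell, each of them with both controls, where 19.4% of all genes rose and 15.4% fell. With scaling 3 rose and 4 fell. ZBED2 fell most (-2.19, above), and the ETS factor EHF stood at 104 to 114 TPM against 128 to 162 TPM and fell (-0.36 and -0.20). Among the rises, SOX15 stood at 71.9, 64.5 and 49.6 TPM against 39.1, 43.5 and 42.3 TPM and rose by 0.55 ± 0.12 (limma adjusted p = 0.00418), and OVOL1, a repressor in epithelial differentiation, rose (0.48 and 0.78). Among those not called, the differences were 0.89 for SOX2 (adjusted p = 0.0911), 0.26 for ZNF750, 0.10 for TFAP2C, 0.05 for GRHL2, -0.01 for ELF3, -0.02 for TP73, -0.07 for TFAP2A and -0.25 for GRHL3, all with an adjusted p above that of SOX2. SOX2 stood at 15.97 to 17.64 TPM under the inhibitor, at 21.6 TPM in the empty-vector control and at 4.57 and 6.25 TPM in the variant controls. GATA3 was below 1 TPM in all libraries. Of 8 tested endodermal factors, which mark the classical state, 4 fell and 1 rose. SOX9 (-1.48 and -0.50), FOXA2 (-0.78), GATA6 (-0.71 and -0.08) and FOXA1 (-0.58 and -0.17) fell, and FOXA3 rose by 1.47, from 1.23 to 1.75 TPM to 5.12 to 6.69 TPM. With the empty-vector library alone only FOXA2 remained lower among these 4.

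The laminin-332 chains and hemidesmosome genes, which anchor basal cells to the basement membrane, differed widely among the 3 controls. LAMA3 stood at 43.6 to 49.4 TPM under CB-6644, at 140 and 102 TPM in the A62T and dF109 controls and at 40.3 TPM in the empty-vector control, and LAMB3 stood at 102 to 165 TPM against 322, 214 and 112 TPM. Against the 3 controls the differences were -0.84 for LAMA3 (limma adjusted p = 0.0602) and -0.58 for LAMB3 (adjusted p = 0.144), and against the empty-vector library 0.18 (adjusted p = 0.123) and 0.24 (adjusted p = 0.382). With scaling they were called lower, at -0.94 (adjusted p = 0.0125) and -0.68 (adjusted p = 0.0239). Of 8 genes tested of 9 listed, 1 fell, the integrin ITGB4 (-0.88), which was at -0.68 (adjusted p = 0.103) against the empty-vector library. DST differed by -0.68, PLEC by -0.28, COL17A1 by -0.03 and ITGA6 by 0.02, none of them called. Of 10 desmosome genes 2 rose, DSP (0.62 and 0.37) and PERP (0.32 and 0.16), and 2 fell, PKP2 (-0.61 and -0.12) and PKP3 (-0.57 and -0.43). Neither fall was called against the empty-vector library, and PERP was not called with scaling.

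Genes of squamous differentiation followed. Of 16 tested cornified envelope genes 9 fell, 5 of them with both controls, and 1, CNFN, rose by 0.78 (0.54, adjusted p = 0.0519, against the empty-vector library), with a median of -0.59. The transglutaminase TGM1 fell by 1.31, from 14.04 to 17.25 TPM to 4.87 to 7.99 TPM, and SPRR2E (-1.83 and -1.05) and SPRR2D (-1.63 and -0.79) fell, SPRR2D with an adjusted p of 0.202 against the empty-vector library. Of 7 tested kallikrein-related peptidases 6 fell, 4 with both controls, and none rose, with a median of -0.62. KLK10 stood at 137, 137 and 110 TPM against 298, 370 and 235 TPM and fell by 1.21, and KLK8 fell as well (-0.68 and -0.39). Of 13 S100 genes 4 fell, 1 of them with both controls, and 1 rose. S100A2, a marker of basal-like tumors, stood at 1111, 1162 and 1266 TPM against 1428, 1522 and 1455 TPM and fell by 0.32 ± 0.07 (limma adjusted p = 0.0038), whereas S100A13 rose by 1.15, from 326 to 414 TPM to 788 to 847 TPM. S100A2 was not called in the fit of 6 libraries (limma adjusted p = 0.0724), and it stood at 1007 to 1101 TPM in the variant cells under CB-6644.

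Of the 87 measured genes of the study's list of KLF5 direct targets in T3M-4, drawn from newly made RNA after KLF5 degradation and from KLF5 binding, 37 fell and none rose in limma against the 3 DMSO libraries, with a median of -0.48. Against the empty-vector library alone 26 fell and 10 rose, with a median of -0.17, and 20 were lower with both controls. MYEOV fell by 1.80 (-0.68 against the empty-vector library) and the chloride channel ANO1 by 1.46 (-0.77), and the mucin MUC16 was called lower against the 3 controls (-1.46) and not against the empty-vector library (-0.71, adjusted p = 0.327). Of 242 genes that the study chose as lowered by KLF5 knockout in libraries of the same line, 99 fell and 18 rose (median -0.32). Against the empty-vector library alone 93 fell and 36 rose (median -0.18), and in the fit of 6 libraries 54 fell and 4 rose. Among the 242 genes CD177 rose by 1.00 and FKBP5 by 0.75. Both lists were chosen by the study, the second on T3M-4 libraries of this series, and are no independent evidence of a direction. In the Moffitt signatures of pancreatic tumor subtypes, 58 of 156 tested Basal-like genes fell and 15 rose (median -0.32), and 33 of 135 tested Classical genes fell and 21 rose (median -0.12). Against the empty-vector library 40 and 29 Basal-like genes and 17 and 32 Classical genes fell and rose, where 9.70% of all genes fell and 27.1% rose. The largest rises in the Classical list were those of PAQR8 and MARCKSL1, at 1.51 each, with MARCKSL1 at 130, 114 and 95.0 TPM against 45.8, 49.0 and 25.5 TPM, and the largest fall called with both controls was that of PRR15 (-1.59). The collagenase MMP13 led the rises of the Basal-like list at 1.74, but stood at 103 TPM in the empty-vector control, and the difference from that library was 0.38.

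**Figure D4:**
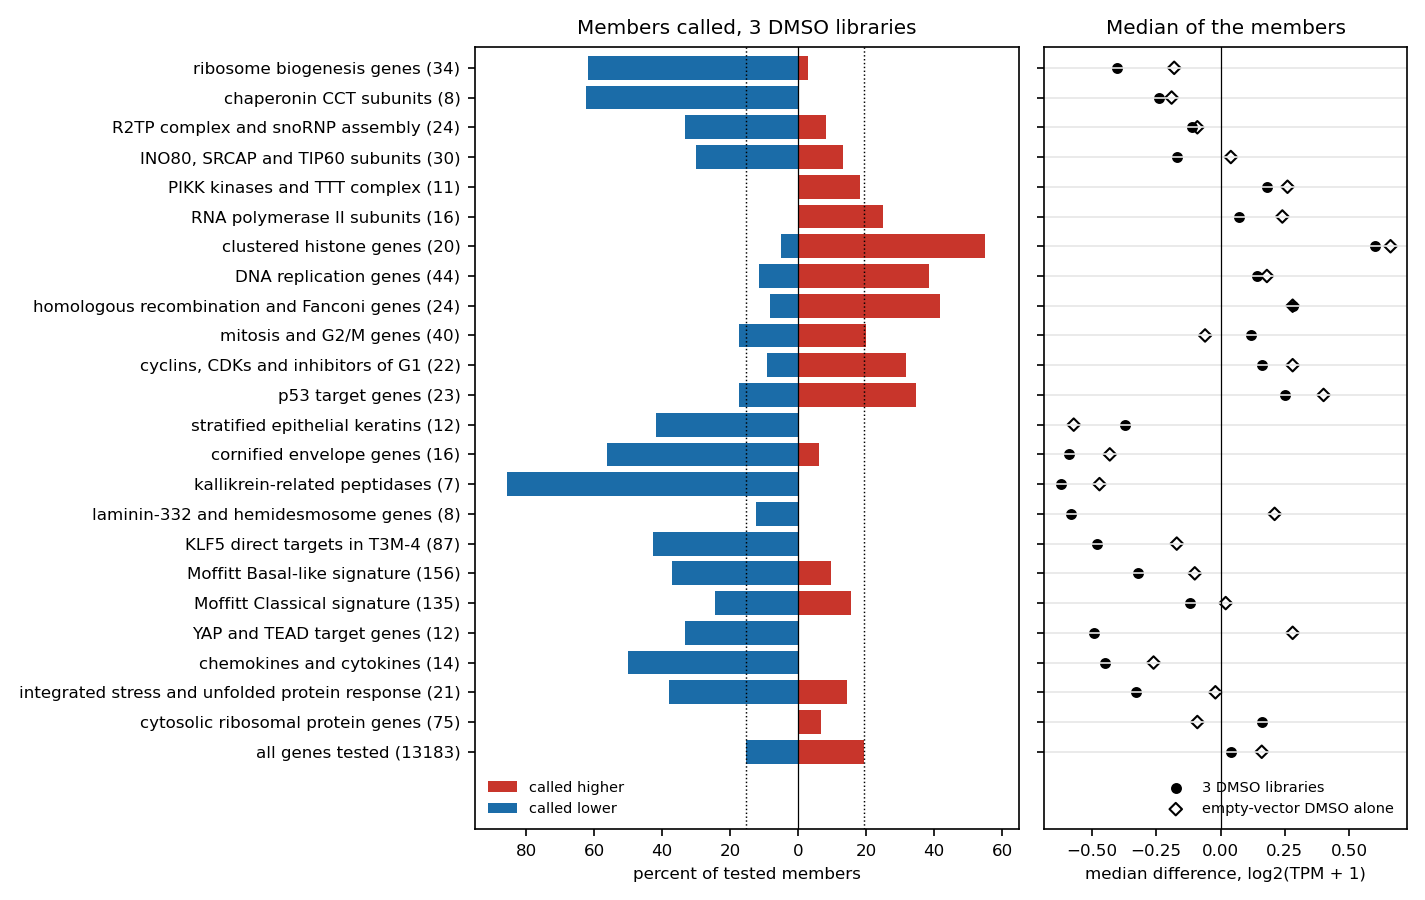
Left, percent of the tested members of each gene list (number tested in parentheses) called higher (right of 0) or lower (left of 0) against the 3 DMSO libraries, with dotted lines at the 19.4% and 15.4% of all genes. Right, median difference of the members on the log2(TPM + 1) scale with either control; ribosome biogenesis and stratified keratin genes lie below 0 and histone genes above 0 with both, whereas laminin-332 and YAP target genes change sign.

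Lists of signaling and secreted factors depended on the control. Of 14 chemokines and cytokines 7 fell and none rose, and 3 fell and 3 rose against the empty-vector library. The neutrophil chemokine CXCL8 stood at 15.9, 13.9 and 18.3 TPM against 103, 71.3 and 23.9 TPM, and the difference was -1.76 against the 3 controls and -0.56 against the empty-vector library. CXCL1 fell by 1.47 (-0.90 against the empty-vector library). Of 12 YAP and TEAD targets 4 fell, ANKRD1, F3, AJUBA (-0.63 and -0.40) and TEAD4 (-0.63 and -0.14, the latter not called), and the median of the list was -0.49 against the 3 controls and 0.28 against the empty-vector library. Of 13 AP-1 and immediate early factors 4 fell, MYC, KLF6 (-1.02), JUND (-0.67) and JUNB (-0.61), and FOSB rose (0.67 and 1.12). KLF6 stood at -0.23 against the empty-vector library and was not called (adjusted p = 0.236), and with that control 6 members rose and 3 fell, and the median went from -0.14 to 0.50. Of 12 MAPK feedback genes 4 fell, among them PHLDA1 (-0.86 and -0.52) and SPRY1 (-0.80), and 2 fell and 3 rose against the empty-vector library, and of 9 EGF receptor ligands and receptors the ligands EPGN (1.17) and BTC (0.44) rose and none fell, or 3 rose and 2 fell with scaling. Of 18 interferon-stimulated genes 5 fell, IFI44L (-1.13 and -0.34, the latter not called) and IFIT3 (-0.86 and -0.34) among them, and 1 rose. With the empty-vector control 2 fell and 5 rose, and the median of this list went from -0.21 to 0.12. Of 16 secreted proteases and genes of the plasminogen system 7 fell and 1 rose, with MMP28 at -1.20, and 5 fell and 5 rose against the empty-vector library. In the mesenchymal list 1 of 8 rose, SNAI1, from 2.03 to 3.75 TPM to 8.48 to 16.4 TPM (1.75), and 1 fell, SNAI2 (-0.68 and -0.36, the latter not called).

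Of 21 measured genes of the integrated stress and unfolded protein responses 8 fell and 3 rose, with 8 and 3 also with both controls. With scaling 10 fell and 1 rose, and in the fit of 6 libraries 6 fell and none rose. Against the empty-vector library alone 9 fell and 8 rose, and the median of the list went from -0.33 to -0.02. The ATF4-responsive genes CHAC1 (-1.65 and -0.96), TRIB3 (-1.59), PSAT1 (-0.96) and DDIT4 (-0.88 and -1.54) led the falls. TRIB3 stood at 17.7, 17.4 and 13.1 TPM against 62.5, 51.1 and 38.7 TPM. SEL1L (0.43 and 0.77) and PDIA4 (0.27 and 0.44, not called with scaling) rose. Of 26 genes of cholesterol and fatty acid synthesis 6 rose and 3 fell, where 19.4% of all genes rose and 15.4% fell. Against the empty-vector library 5 rose and 5 fell. The sterol reductase TM7SF2 stood at 54.79, 54.03 and 52.38 TPM against 15.3, 15.5 and 20.2 TPM and rose by 1.61 ± 0.10 (limma adjusted p = 3.1e-06), and INSIG1 fell by 0.88. Of 23 glycolysis and hypoxia genes 4 rose and 6 fell, beside the 19.4% and 15.4% of all genes. HK2 fell most (above), the glucose transporter SLC2A1 fell (-0.75 and -0.49, the latter not called) and TPI1 rose (0.56 and 0.36). With scaling 1 rose, 7 fell and TPI1 was not called. Of 16 antioxidant genes of the NRF2 type 5 fell and 2 rose, with GCLC (-0.68 and -0.36) and TXNRD1 (0.71 and 1.22) among them, and against the empty-vector library 4 fell and 4 rose. Of 40 respiratory chain subunits 13 rose and 3 fell (4 and 2 with both controls), but with scaling none rose and 4 fell, and in the fit of 6 libraries 1 rose and 1 fell. The antigen presentation list had 3 rises, ERAP1 (0.66) and HLA-E (0.53 and 0.84) among them, and 1 fall, of CALR by 0.50, in 16 genes, and 8 rises and 1 fall against the empty-vector library. The lysosome and autophagy list had 3 rises, with NEU1 at 0.84 and 1.37, and 1 fall, of SQSTM1 (-0.72 and -0.04), in 24 genes, with 10 rises and no fall against the empty-vector library and 3 rises and 6 falls with scaling. SQSTM1 stood at 200 TPM in the empty-vector control and at 187 to 200 TPM under the inhibitor. Only 4 of 16 heat shock genes could be matched by name, and the list was not read.

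The 3 empty-vector libraries were next compared with the variant cells under the same inhibitor, without any DMSO library. The comparison asks what differs between sensitive and protected cells, and it shares its treated libraries with the results above. A total of 1220 genes were higher in the empty-vector cells and 5886 lower in limma, 9.25% and 44.6% of 13183, or 53.9% in all. The median difference was -0.25, and scaling by the median of ratios moved it to near 0 and the calls to 2813 higher and 3030 lower, so each gene is read against that shift. UTP18 stood at 50.6 to 52.1 TPM in the 3 A62T libraries and at 50.03 to 51.32 TPM in the 3 dF109 libraries, between the 18.4 to 20.1 TPM of treated empty-vector cells and the DMSO controls, and the difference was -1.35 ± 0.06. KAT5 stood at 52.6 to 54.6 and 36.8 to 37.8 TPM (-1.43). C1orf61 stood at 6.002 to 7.142 and 10.93 to 11.99 TPM, above the DMSO libraries and below the treated empty-vector cells (1.24). Of the 10 largest rises 9 were also higher than in the variants and of the 10 largest falls all 10 were lower. KRT5 and KRT4 were higher in the treated empty-vector cells than in the treated variants, by 1.04 and 1.96, as they were in the empty-vector DMSO library against the variant DMSO libraries. KRT17 was lower than in the variants by 0.61. KRT14 (-0.22, limma adjusted p = 0.223), DDIT4 (-0.07, adjusted p = 0.747) and CDKN1A (0.05, adjusted p = 0.719) were called against DMSO but not here. S100A2, which fell against DMSO, was higher than in the variants by 0.15 (adjusted p = 0.0407). Variant genotype and protection from the inhibitor cannot be told apart in this contrast.

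The CB-6644 effect in T3M-4 was set against that in AsPC-1, another pancreatic cancer line with the same design. Of 11616 genes tested in both, the effects differed for 2358, 20.3%, in limma, with 668 (5.75%) more positive in T3M-4 and 1690 (14.5%) more negative. With the empty-vector DMSO libraries alone as controls in both lines these were 966 and 355, so the more frequent direction turned with the control. Leaving out the T3M-4 empty-vector DMSO library gave 4522 differences and leaving out treated T3M-4 replicate 1 gave 3548, and omission of AsPC-1 DMSO replicate 2 or AsPC-1 treated replicate 3 gave 1433 or 1569. PTHLH stood at -1.72 ± 0.11 in T3M-4 and 0.09 ± 0.13 in AsPC-1, with a difference of -1.82 ± 0.19 (adjusted p = 3.83e-06), and -1.18 with the empty-vector controls. JDP2 (-1.68 in T3M-4 and -0.41 in AsPC-1) and PITX1 (-1.76 and -0.39) also fell more in T3M-4. Of 205 named genes tested in both lines the effects differed for 70. The named genes were largely chosen by their calls in T3M-4, so this share cannot be compared with the 20.3% of all genes. Among the 70, 15 were called in opposite directions, 13 of them lower in T3M-4 and higher in AsPC-1. The differences of SPRR2D, CXCL3, AEN, BBC3, VEGFA, BIK and S100A3 among these 15 were not called with the empty-vector controls. The largest such difference was that of CHAC1, which fell by 1.65 in T3M-4 and rose by 1.07 in AsPC-1, a difference of -2.72 ± 0.47 (adjusted p = 0.000669), and -0.92 with the empty-vector controls. TRIB3 fell by 1.59 in T3M-4 and rose by 0.57 in AsPC-1 (-2.16 ± 0.32, adjusted p = 0.000144, and -1.10 with the empty-vector controls), and SPRR2D fell by 1.63 and rose by 0.92 (-2.56 ± 0.49, adjusted p = 0.00148, but not called with the empty-vector controls). Of the 19 stress response genes tested in both lines 12 were called higher and 1 lower in AsPC-1, and for 9 the effect was more negative in T3M-4. SOX15 rose in T3M-4 by 0.55 and stood at 0.04 in AsPC-1, and EHF fell by 0.36 in T3M-4 and by 1.49 in AsPC-1. UTP18 fell in both lines, by 2.12 and 1.57, a difference of -0.56 ± 0.09 (adjusted p = 0.000424). For KAT5 (-1.62 and -1.52, adjusted p = 0.521), SARS2 (-1.55 and -1.68, adjusted p = 0.596), NPTXR (2.11 and 2.24, adjusted p = 0.801) and HAP1 (1.99 and 2.18, adjusted p = 0.597) the difference was not called. Of the 5 top rises tested in AsPC-1 all 5 were called higher there, and of the 6 top falls 5 were called lower, TGM2 being the exception at -0.15. In AsPC-1 39.9% of all 11616 genes were called higher and 1623 genes, or 14%, lower, 53.9% in all.

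**Figure D5:**
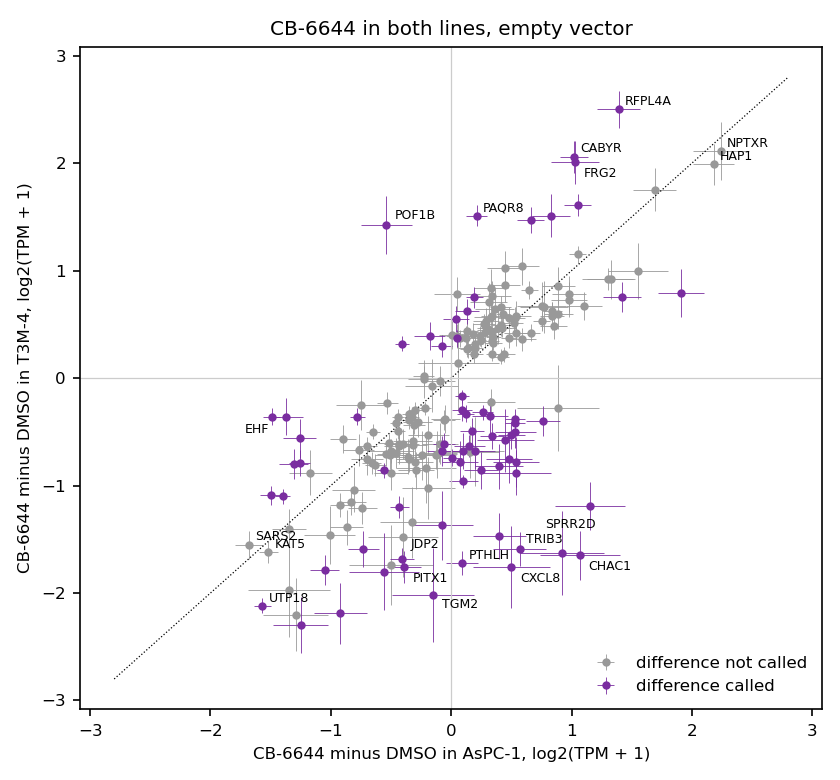
Effect of CB-6644 in empty-vector AsPC-1 (horizontal) and T3M-4 (vertical) on the log2(TPM + 1) scale for the 205 named genes tested in both lines, as mean difference ± SE from limma (3 treated and 3 DMSO libraries per line). Purple points differed between the lines at an adjusted p under 0.05; CHAC1, TRIB3 and SPRR2D lie below 0 in T3M-4 and above 0 in AsPC-1, SARS2, NPTXR and HAP1 lie near the dotted line of equal effect, and PTHLH, JDP2 and PITX1 lie below it.

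Knockout of the inhibited proteins in T3M-4 gave another readout, with its own controls (sgRosa) and at day 5, so the values are given side by side. Of the 1057 genes lower under CB-6644 with both controls and measured there, 497 (47%) were lower after sgRUVBL1 and 135 (12.8%) higher, where 14.6% and 45.9% of all 13244 genes were. After sgRUVBL2 494 were lower and 136 higher, against 15.2% and 39.3% of all genes, and after sgKLF5 291 were lower and 180 higher, against 11.2% and 23.4%. Of the 1911 genes higher under CB-6644 with both controls and measured there, 1150 (60.2%) were higher after sgRUVBL1, 996 (52.1%) after sgRUVBL2 and 446 (23.3%) after sgKLF5. Over all genes these shares were 45.9%, 39.3% and 23.4%, so the share after sgKLF5 was that of all genes. RFPL4A rose by 3.04 after sgRUVBL1 and by 2.06 after sgRUVBL2 and stood at -0.15 after sgKLF5. UTP18 fell by 0.58, 0.60 and 0.25 in the 3 knockouts, where CB-6644 lowered it by 2.12. KRT5 fell by 2.25, 2.00 and 2.33 in the knockouts and was not called under 24 h of CB-6644, and S100A2 fell by 1.38 and 1.17 after the RUVBL knockouts and stood at -0.14 after sgKLF5. KAT5 stood at -0.14 (adjusted p = 0.0921) after sgRUVBL1, fell by 0.16 after sgRUVBL2 and stood at -0.01 after sgKLF5. DNA replication genes, of which 17 rose under CB-6644, were lower for 35, 37 and 27 of 44 in the 3 knockouts and higher for none of them in limma. Clustered histone genes were higher for 9, 9 and 8 of the 18 measured there, beside 45.9%, 39.3% and 23.4% of all genes. Over all genes, 60.5%, 54.5% and 34.6% were called in either direction in the 3 knockouts.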

How the data were processed

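Poly-A RNA of T3M-4 cells was sequenced as single reads. Per the labels and the study's methods, the authors quantified reads with kallisto on hg38, removed low-abundance transcripts and deposited gene-level TPM, which carry no depth, so no counting interval is given. The library kit does not mark strand, so overlapping and antisense genes cannot be told apart. From the deposited TPM, genes were tested, where their average in the 6 compared libraries reached 1 TPM, with limma 3.58.1 in R 4.3.3 (empirical Bayes trend, log2(TPM + 1), Benjamini-Hochberg adjustment over all genes). One fit held the 12 T3M-4 libraries, another the 24 of T3M-4 and AsPC-1 for the difference of effects, and another the knockouts. On simulated data with 200 changed genes for the T3M-4 comparison, 83% of changes of 1 on the log2 scale were recovered over 13183 genes. Of the calls 4.6% were false. The simulation gave all groups the same spread, whereas the 3 real DMSO libraries were not alike, so these rates may not hold for the data.

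The genes named are KRT4, KRT5, KRT17 and S100A2, the 10 largest rises and 10 largest falls whose groups did not overlap, up to 4 called members per list and direction, and the members of the keratin, basal factor and hemidesmosome lists. Genes picked after their values were seen are marked as such. The members and lists were chosen with earlier results of these data known. A few listed genes count in the list totals and are not reported here by name. Other files of the series, columns of the authors' own comparisons included, were not used here. Promoters are from RefSeq (GRCh38.p14).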

Additional observations from a re-analysis of the deposited data

Results flagged for a closer look

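For 70 of 205 named genes tested in both lines the CB-6644 effect in T3M-4 differed from that in AsPC-1 by a test of the difference itself (limma, adjusted p under 0.05, 3 treated and 3 DMSO libraries per line). The values are T3M-4 minus AsPC-1 on the log2(TPM + 1) scale, with 23 more positive and 47 more negative in T3M-4. The named genes were largely chosen by their calls in T3M-4, so these counts do not describe all genes. With the empty-vector DMSO library of each line as the only control, 31 were called in the same direction and 39 were not called.

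More negative in T3M-4, and also called with the empty-vector controls, were CHAC1 (-2.72), TRIB3 (-2.16), PTHLH (-1.82), DDIT4 (-1.42), PITX1 (-1.36), JDP2 (-1.28), LEMD1 (-1.12), PSAT1 (-1.07), PFKP (-1.03), HIST1H1C (-0.94), RBBP8 (-0.91), MMP28 (-0.77), PFDN2 (-0.75), S100A2 (-0.58) and UTP18 (-0.56). More positive with both were POF1B (1.96), PAQR8 (1.3), EHF (1.13), RFPL4A (1.11), CABYR (1.04), FRG2 (0.98), FOXA3 (0.81), PERP (0.74), KRT18 (0.70), MARCKSL1 (0.69), FKBP5 (0.56), SPRY1 (0.50), MCRS1 (0.48), CCNB1 (0.42), KRT16 (0.41) and NDUFS1 (0.32).

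Not called with the empty-vector controls, and more negative against the 3 DMSO libraries, were SPRR2D (-2.56), CXCL3 (-2.34), CXCL8 (-2.25), TGM2 (-1.87), CXCL1 (-1.87), AEN (-1.32), LIF (-1.29), ZBED2 (-1.27), MYEOV (-1.24), GCLM (-1.22), S100A3 (-1.22), BBC3 (-1.16), PHLDA1 (-1.11), DHRS9 (-1.05), VEGFA (-1.03), LAMB3 (-1.03), BIK (-0.88), SNAI2 (-0.88), PRR15 (-0.86), S100A10 (-0.85), ISG15 (-0.78), AJUBA (-0.78), HK2 (-0.74), TP63 (-0.67), S100A11 (-0.66), CDKN1A (-0.66), GCLC (-0.60), JUNB (-0.55), NOP10 (-0.45), NDUFS8 (-0.39), NOP16 (-0.31) and UQCRFS1 (-0.26). Likewise not called with those controls, and more positive, were KRT15 (1.01), MBTD1 (0.57), TM7SF2 (0.57), SOX15 (0.51), DSP (0.50), RPS16 (0.38) and KRT19 (0.30). KRT15, TP63 and LAMB3 were not called in T3M-4 itself.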

How the results depend on the processing

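Against the 3 DMSO libraries, calls went from 4592 to 1550 (884 higher, 666 lower) in a fit of the 6 compared libraries and to 534 (270 and 264) with a change of at least 1 also required. Scaling by the median of ratios gave 3341 falls and the empty-vector DMSO library alone 1279. Leaving out 1 library gave between 1694 and 3584 rises. The difference between the lines was called for 1433 to 4522 genes, of which 939 to 3596 were lower, when 1 library was left out. It was called for 1321 (355 lower) with the empty-vector controls, an alternative chosen after seeing the data, and scaling gave 1292 higher. Against treated variants, scaling gave 2813 higher and 3030 lower, and dF109 alone 4588 called (667 higher, 3921 lower).

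Against the empty-vector library alone these medians turned sign: simple keratins 0.01, basal factors 0.20, hemidesmosome 0.21, desmosome 0.02, MAPK feedback 0.10, AP-1 0.50, interferon-stimulated 0.12, INO80, SRCAP and TIP60 0.04, mitosis -0.06, glycolysis -0.05, MYC family 0.02, ribosomal proteins -0.09, BCL2 family 0.01, antigen presentation 0.35, lysosome 0.27, YAP targets 0.28, epithelial markers 0.22 and Moffitt Classical 0.02. With scaling, RNA polymerase II turned to -0.03 and glycolysis to -0.05.

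Of 248 named genes, 176 kept their call and direction against the empty-vector library alone, 56 lost the call, 4 gained one and 12 turned: KRT4 -0.71, KRT5 -0.11, HMOX1 0.02, KRT81 0.18, SOX2 -0.33, TFAP2A 0.20, GRHL3 0.36, ELF3 0.39, LAMA3 0.18, LAMB3 0.24, COL17A1 0.22 and PLEC 0.48. Scaling turned GRHL2 (-0.04) and ITGA6 (-0.08), with 28 calls lost and 5 gained, and the fit of 6 libraries lost 109. The line difference turned with the empty-vector controls for NPTXR (0.45), HAP1 (0.07), DHRS9 (0.08), F3 (0.08), IGFBP3 (0.50), ISG15 (0.10), CDKN1A (0.26), RPS16 (-0.01), MYEOV (0.23) and LAMB3 (0.02). Leaving out 1 library turned KRT80 (-0.55 to 0.67), TFAP2A (-0.35 to 0.27), TFAP2C (-0.01 to 0.19), GRHL2 (-0.05 to 0.17), ELF3 (-0.22 to 0.16), TP73 (-0.26 to 0.26), COL17A1 (-0.16 to 0.11), ITGA6 (-0.07 to 0.13), PLEC (-0.68 to 0.16), and the line difference of NPTXR (-0.41 to 0.20) and HAP1 (-0.39 to 0.06). The cause was not tested.

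No paired analysis was possible for CB-6644 against DMSO because the DMSO libraries carry no replicate numbers of their own. Against the treated variants, a replicate block gave 8308 calls (1437 higher, 6871 lower) in place of 7106, but deviations of same-numbered libraries correlated only between -0.155 and 0.318, so the libraries share only a number. Each genotype had 1 DMSO library, and the depth behind the TPM values is unknown, which limits what can be said of genes near 1 TPM.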
